A study of Rattus norvegicus with 119 samples.

Results

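Gprc5a (ENSRNOG00000008412, chromosome 4, 168832910 to 168851652, Rnor_6.0) and Tnfrsf19 (ENSRNOG00000014265, chromosome 15, 41246308 to 41338284, Rnor_6.0) were 2 of the 32662 Ensembl genes counted in each library. They were chosen by the ratio of SU over VMP in tissue and in dissociated cells, so those ratios are given as a description with no test, and the question was whether the reads of both genes also lay in single stromal cells or mainly in libraries that held epithelium. The urogenital sinus of female Wistar rats on the day of birth (P0) was microdissected into the ventral mesenchymal pad (VMP), a condensed mesenchyme, and the adjacent urethra (SU), which holds smooth muscle, mesenchyme around the urethra and urethral epithelium. Whole tissue pools were measured by Tag-seq, which reads a short tag next to an NlaIII site, with 1 library per tissue. Pools treated with collagenase, which left epithelium as clumps that were strained away, were measured by RNA-seq with 1 library per tissue and as single cells captured on a Fluidigm C1 chip, 49 from VMP and 66 from SU by the labels. No gene was deleted and no treatment was given apart from the enzyme.

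Gprc5a encodes an orphan G protein-coupled receptor of the GPRC5 family that was first described as a transcript induced by retinoic acid, and it is known mainly from epithelia such as that of the lung. Tnfrsf19, also called TROY, encodes a receptor of the tumour necrosis factor receptor superfamily. It is a known target of Wnt signalling, can stand in for the p75 receptor in the Nogo receptor complex with Lingo1, and is found in embryonic skin, neural progenitors and mesenchymal progenitors.

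Each tissue and bulk assay had 1 library, and all cells of a tissue came from 1 pool, so no difference below has a replicate check and no p-value is given. Total counts on genes were 7870450 in VMP and 8215177 in SU for Tag-seq, and 4397699 in VMP and 7007767 in SU for RNA-seq. Single cells held between 248738 and 1200734 reads in VMP and between 199849 and 1488320 in SU. Levels are given as CPM (the count of a gene scaled to a library of 1000000 reads on genes), and 95% intervals cover counting error only, since reads carried no molecular identifiers. The labels of the tissues were set against marker genes. All 33 matched genes of a 34-gene epithelial list were higher in SU than in VMP Tag-seq, and their summed level was 13412 CPM in SU and 1037 CPM in VMP. Of these, 25 passed the call toward SU described below, beside 6.3% of all 12191 transcripts tested. The median log2 ratio was 3.46 over the list against -0.01 over all transcripts tested. The 13-gene skeletal muscle list had a median of 2.47, with 10 called toward SU. In the RNA-seq libraries of dissociated cells the same epithelial sums were 421.8 CPM in SU and 89.4 CPM in VMP, so the SU library of dissociated cells still held epithelial transcripts. Smooth muscle, named in the SU label, was covered by 2 matched genes of its 8-gene list, Des and Lmod1. Their summed Tag-seq level was 763.7 CPM in SU and 651.8 CPM in VMP. The log2 ratio of SU over VMP was 1.87 for Lmod1 and -0.083 for Des. The other assays had the opposite order of the sums. In RNA-seq they were 30.4 CPM in SU and 148.3 CPM in VMP. In the summed single cells they were 21.5 CPM in SU and 215.7 CPM in VMP. With 2 genes and an order that changed with the assay, this list could not check the label.

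Gprc5a was far higher in SU than in VMP in both bulk assays. In Tag-seq it had 29 counts in VMP, or 3.68 CPM (95% exact Poisson interval 2.47 to 5.29), and 831 counts in SU, or 101 CPM (94.4 to 108). The log2 ratio of SU over VMP was 4.87, with a counting interval of 4.36 to 5.48. In RNA-seq it had 0 counts in VMP, which allows up to 0.682 CPM by a floor of 3 counts (exact Poisson upper limit 0.839 CPM). In SU it had 374 counts, or 53.4 CPM (48.1 to 59.1). Set against that floor, the observed SU level of Gprc5a was at least 78.2-fold higher (90.4-fold after TMM scaling of the libraries).

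Tnfrsf19 showed the same order of the tissues. In Tag-seq it had 62 counts in VMP, or 7.88 CPM (6.04 to 10.1), and 1415 counts in SU, or 172 CPM (163 to 181), a log2 ratio of 4.55 (4.19 to 4.95). In RNA-seq it had 0 counts in VMP and 275 in SU, or 39.2 CPM (34.7 to 44.2), at least 57.5-fold higher in SU against the same floor (66.4-fold after TMM scaling). Both genes passed the study's kind of call (q of at least 0.9, the share of simulated noise with a smaller fold and difference) in both assays. A figure legend of the study adds a limit of 1.5 on the absolute log2 ratio. Both genes passed that limit too, but it was not part of the calls counted here. Over all transcripts tested, Tag-seq gave calls toward SU for 6.3% and toward VMP for 3.38%. RNA-seq gave 2.36% and 1.18%. These shares rest on 1 of 4 ways to build the noise. Because these ratios chose the genes, nothing is read from the calls. In bulk libraries, fewer cells of a type and less RNA per cell cannot be told apart.

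**Figure D1:**
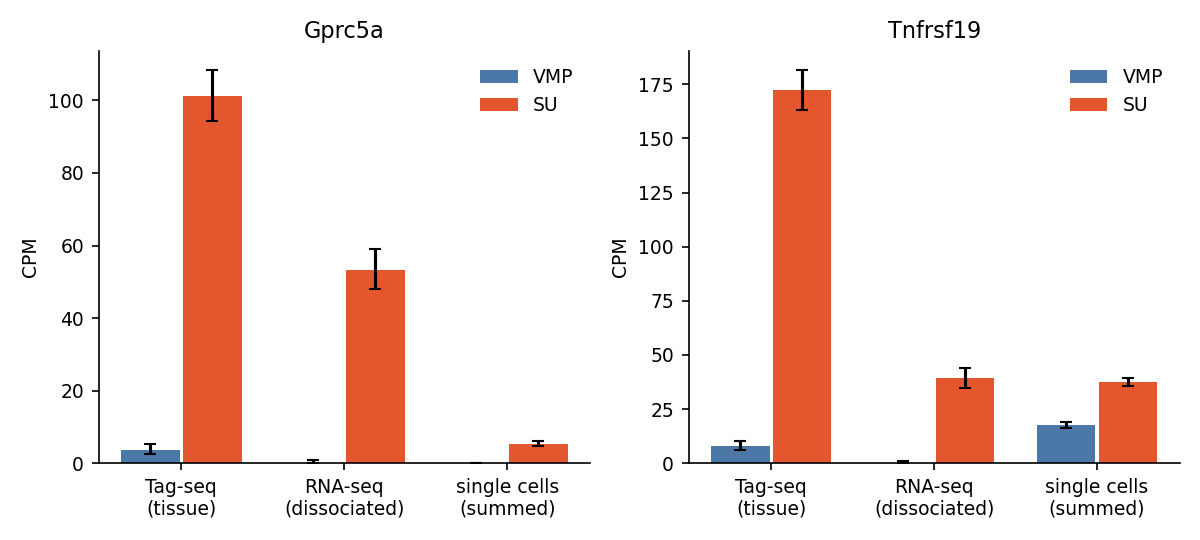
Level (CPM) of Gprc5a (left) and Tnfrsf19 (right) for tissue (Tag-seq), dissociated cells (RNA-seq) and the sum over single cells. Bars are single libraries or sums over cells, VMP in blue and SU in orange, with 95% exact Poisson intervals; Gprc5a falls from 53.4 CPM in SU RNA-seq to 5.34 CPM in summed SU cells, while Tnfrsf19 stays at 39.2 and 37.3 CPM.

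The genes parted when the SU reads were followed from dissociated cells to single cells. Gprc5a was at 5.34 CPM (4.68 to 6.06) in the summed SU cells, so its level in the SU RNA-seq library was 10.0-fold higher (8.47 to 11.8). This ratio rests on few cells: it was 26.9 without SU cell 83, and 7.19 with the mean of per-cell CPM in place of the sum. Tnfrsf19 was at 37.3 CPM (35.5 to 39.1) in the summed SU cells, and its level in the RNA-seq library was 1.05-fold that value (0.923 to 1.197). The same ratio was 97.0 (47.7 to 230) for Epcam, the epithelial adhesion molecule, 24.7 (20.7 to 29.5) for the basal keratin Krt15 and 19.2 (15.3 to 24.3) for the tight junction gene Cldn4. In 13 further epithelial genes no SU cell had a read. One of them, the keratin Krt17, had 202 counts in the RNA-seq library and 0 in the cells, at least 425-fold higher in the library. The fibrillar collagens Col1a1 and Col3a1 had ratios of 1.32 and 2.70, the matrix proteoglycan Dcn 1.52 and the growth factor receptor Pdgfra 1.65. Over the lists, the ratio had a median of 19.2 for the 19 epithelial genes with reads in the SU cells and in the RNA-seq library. Of these, 11 exceeded Gprc5a and 16 exceeded Tnfrsf19. Their ratios ran from 0.270 for Cdh3 to 435 for Spint1, with Perp at 0.902 and Grhl3 at 0.969. These overlapped the ratios of the stromal genes. The epithelial genes with no reads in the SU cells were left out of this median and these counts. Where their RNA-seq count allowed a lower bound, it ran from 18.9 for Grhl2 to 425 for Krt17. Each such bound exceeded the ratio of Gprc5a. The ratio ran from 0.609 to 2.70 over the 8 matched genes of a 15-gene stromal list, with Gprc5a above all 8 and Tnfrsf19 below 6 of them.

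From tissue to dissociated cells, where the assays also differ, Gprc5a had a level 1.90-fold higher in SU Tag-seq than in SU RNA-seq and Tnfrsf19 4.39-fold. The median of that ratio was 22.4 over 30 epithelial genes, of which 24 exceeded Gprc5a and 23 exceeded Tnfrsf19. All 8 stromal genes had a ratio below 1, from 0.0868 to 0.635. Both genes lay above all 8 stromal genes and within the range of the epithelial genes (0.296 to 1403), in its lower part. A tag next to an NlaIII site and full-length reads weigh genes differently, and what part of a ratio comes from the assay was not tested.

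**Figure D2:**
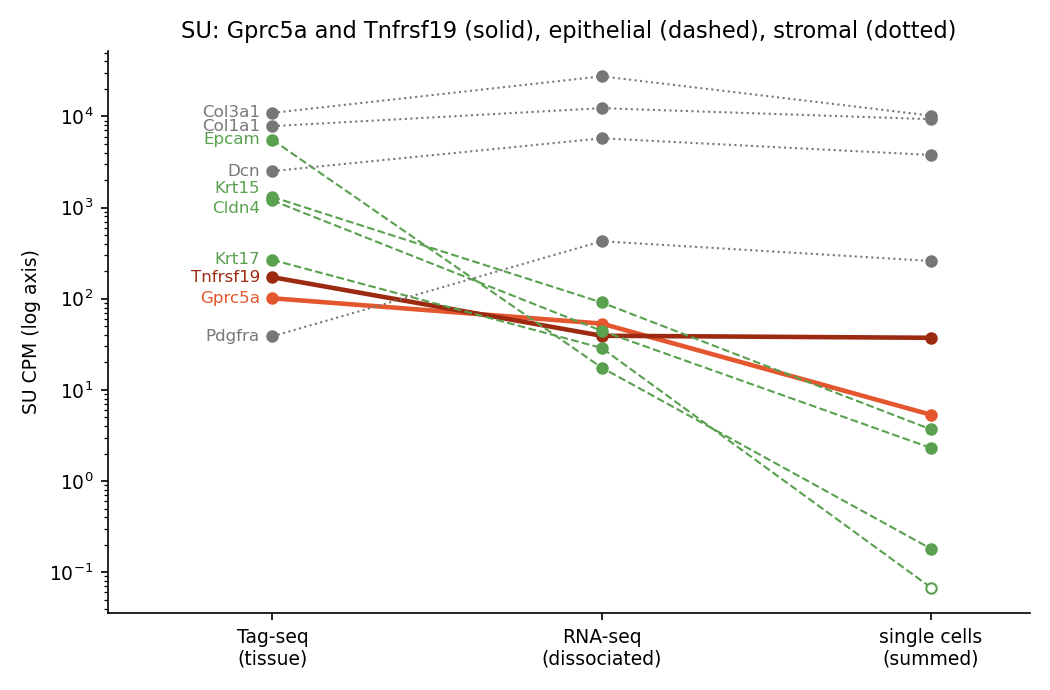
SU level in CPM (log axis) of Gprc5a and Tnfrsf19 (solid), epithelial genes (dashed, green) and stromal genes (dotted, grey) in Tag-seq, RNA-seq and summed single cells. The open point is Krt17, with 0 reads in the cells, drawn at the floor of 3 counts; from RNA-seq to single cells Gprc5a falls 10.0-fold, while the line of Tnfrsf19 is nearly flat (a ratio of 1.05).

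Gprc5a reads lay in few single cells. None of the 49 VMP cells had a read, which allows a share of cells with reads of up to 6.12% by the floor of 3 counts (exact binomial upper limit 7.25%) and sets no limit on cells that express the gene below detection. Of the 66 SU cells, 6 had at least 1 read (9.09%, exact binomial interval 3.41 to 18.7%) and 2 had at least 10 reads (3.03%, 0.369 to 10.5%). SU cell 83 had 150 reads, SU cell 01 had 71, SU cell 67 had 7, SU cell 75 had 6, and SU cells 02 and 68 had 1 each. The top pair of cells held 93.6% of the 236 reads. The summed SU cells were at least 53.05-fold above the summed VMP cells by the floor of 3 counts.

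Tnfrsf19 was spread over more SU cells. It had at least 10 reads in 11 of 66 SU cells (16.7%, 8.62 to 27.9%), and these held 97.3% of its 1648 reads. The 6 highest were SU cell 45 with 356 reads, SU cell 16 with 320, SU cell 92 with 255, SU cell 75 with 148, SU cell 52 with 124 and SU cell 80 with 117. SU cell 11 had 90 reads, SU cell 02 had 75, SU cell 78 had 57, SU cell 23 had 36 and SU cell 79 had 26. A gap followed, since the next SU cell had 9 reads. In VMP, 1 of 49 cells had at least 10 reads (2.04%, 0.0517 to 10.9%), and that cell, VMP cell 44, had 492, more than any SU cell.

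Traces of 1 to 3 Tnfrsf19 reads occurred in both tissues, in 21 of 49 VMP cells (42.9%, 28.8 to 57.8%) and in 18 of 66 SU cells (27.3%, 17.0 to 39.6%). Counting every cell with a read therefore gave similar shares, 44.9% in VMP (30.7 to 59.8%) and 48.5% in SU (35.99 to 61.1%), with overlapping intervals. The summed level was 17.6 CPM in VMP cells and 37.3 CPM in SU cells, a 2.11-fold difference (1.91 to 2.33). VMP cell 44 held 93.5% of the VMP reads, and without it the VMP level was 1.17 CPM and the difference 31.7-fold (22.6 to 46.0). The VMP RNA-seq library of the same dissociated tissue had 0 counts of Tnfrsf19.

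**Figure D3:**
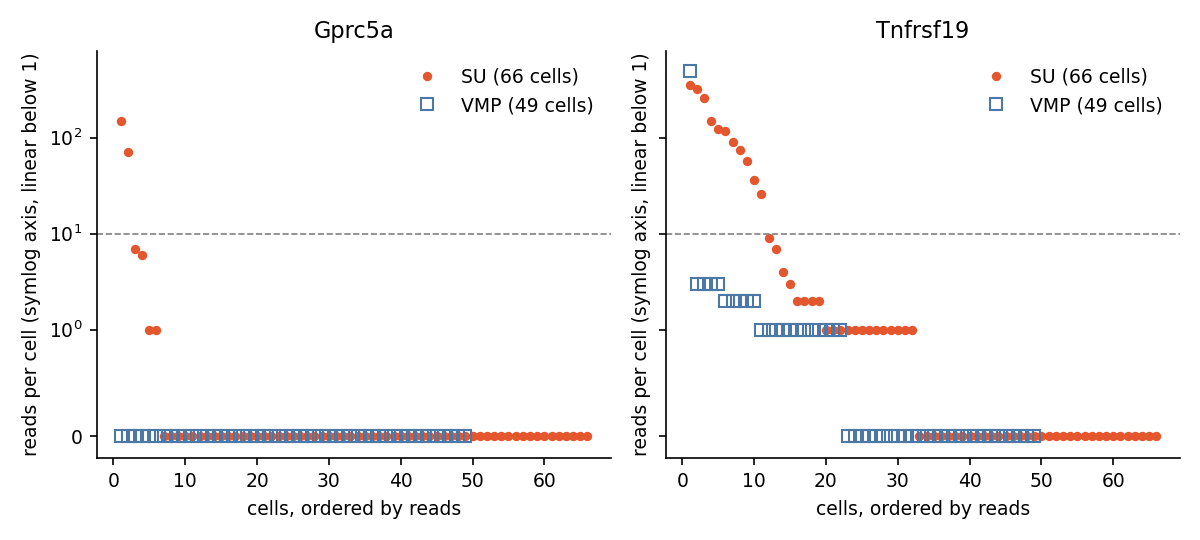
Reads of Gprc5a (left) and Tnfrsf19 (right) in each single cell, ordered by reads, on a symmetric log axis that is linear below 1; open blue squares are 49 VMP cells and orange points 66 SU cells. The dashed line marks 10 reads, above which lie 2 SU cells for Gprc5a, and 11 SU cells and 1 VMP cell for Tnfrsf19.

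The cells with most reads of either gene had a far higher summed level of stromal than of epithelial genes. Every SU cell did, so this did not set them apart. SU cells 01 and 83, the pair with at least 10 Gprc5a reads, had summed stromal levels of 37371 and 40861 CPM, against a median of 29876 CPM over all 66 SU cells (range 5156 to 60937). Their summed epithelial levels were 18.95 and 31.6 CPM, against a median of 35.4 CPM over the SU cells (5.49 to 280.2). In SU cell 01 no epithelial gene had 10 reads, and in SU cell 83 only Perp did. Perp, a desmosome gene counted in the epithelial list, had reads in all 66 SU and all 49 VMP cells, so it did not set cells apart here.

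The 11 SU cells with at least 10 Tnfrsf19 reads had stromal levels between 9473 and 38451 CPM, with a median of 27282 CPM, and each had reads on 6 to 8 of the 8 stromal genes. Pdgfra had at least 10 reads in all 11. Their epithelial levels ran from 5.64 to 152.6 CPM with a median of 48.8 CPM, against 34.6 CPM in the other 55 SU cells. Epcam, Cdh1, Krt8 and Krt19 had no more than 1 read in any SU cell. Other genes of the list did reach 10 reads in SU cells. Grhl3, an epithelial transcription factor, did so in 10 SU cells, with up to 328 reads, and St14 in 2, with up to 142. Cldn4 (102 reads), Prss8 (72), Cdh3 (70) and Krt5 (55) did so in 1 SU cell each. Of these genes, Prss8 alone had 10 reads in any of the 11 cells with Tnfrsf19, in SU cell 79. A cell was counted as holding epithelial transcripts when at least 3 genes of the epithelial list had at least 10 reads each. By that measure 1 of 66 SU cells and 0 of 49 VMP cells did. The 1 was SU cell 45, the deepest SU cell and the one with most Tnfrsf19 reads, through Krt15 with 149 reads, Upk3a, a uroplakin of the urothelium, with 12, and Perp. It also had reads on 8 of 8 stromal genes and a stromal level of 27282 CPM. It held 21.6% of the Tnfrsf19 reads of SU cells and 0% of the Gprc5a reads. These shares depended on the definition. With Perp left out of the list, a choice made after seeing the data, no SU cell reached 3 genes and both shares were 0%. With 3 genes at 1 read or more, 50 of the 66 SU cells qualified, and they held 78.5% of the Tnfrsf19 reads and 97.0% of the Gprc5a reads. Without this cell the RNA-seq level of Tnfrsf19 was 1.30-fold that of the summed cells and that of Gprc5a 9.66-fold.

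Skeletal muscle genes were also present in the cells with Tnfrsf19. At least 1 gene of the 13-gene skeletal muscle list had 10 or more reads in 8 of the 11 cells. The same held for 35 of all 66 SU cells (53.03%, 40.3 to 65.4%) and 21 of the 49 VMP cells (42.9%, 28.8 to 57.8%). Myf5, a transcription factor of the myogenic lineage, had 282 reads in SU cell 52, 149 in SU cell 45, 63 in SU cell 78 and 58 in SU cell 75. SU cell 11 had 387 reads of the troponin Tnni1 and 188 of the acetylcholine receptor subunit Chrna1. Genes of the list went both ways. Myf5 had at least 10 reads in 4 of the 11 cells and 7 of the other 55 SU cells. Tnni1 did in 2 and 2, and Chrna1 in 2 and 8. Tnnc2 did in 0 and 9, Acta1 in 0 and 4, and Myh3 and Mylpf in 0 and 2 each. The remaining genes of the list did in 1 of the 11 cells each. VMP cell 44 had 1130 reads of the troponin Tnnc2, the most of any VMP cell, and 404 of the intermediate filament gene Des. Tnnc2 had at least 10 reads in 8 of the 49 VMP cells and Des in 21, with up to 898. The summed stromal level of VMP cell 44 was 7009 CPM against a VMP median of 10715 CPM. In VMP cell 44 no epithelial gene but Perp had 10 reads. Over 10150 genes the log2 profile of this cell correlated with the mean of the other VMP cells at 0.601 and with the mean SU cell at 0.583. The closer match was its own tissue, as in 48 of the 49 VMP cells. The difference of -0.018 was small beside the VMP median of -0.057, and 2 VMP cells leaned more toward SU. Of the 6 SU cells with Gprc5a reads, 3 also had Tnfrsf19 reads, which 32 of the 66 SU cells had, and no cell had at least 10 reads of both. With so few cells no association between the genes can be read from these counts. Endothelial genes had 10 or more reads in 6 of the 11 Tnfrsf19 cells and in 28 of 66 SU cells, and leukocyte and Schwann cell genes in none of them, though these last lists had 1 matched gene each. What part of the level of either gene comes from such transcripts was not tested.

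**Figure D4:**
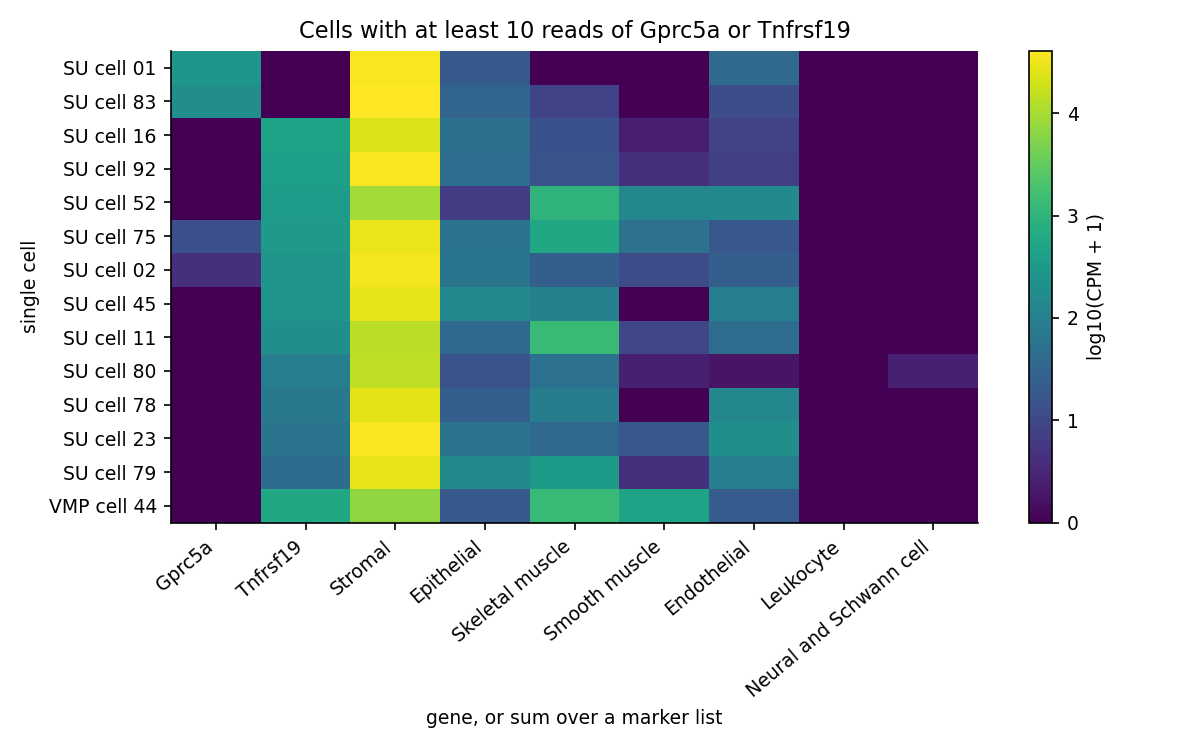
Levels in the 13 SU cells and 1 VMP cell with at least 10 reads of Gprc5a or Tnfrsf19, as log10(CPM + 1). Columns are both genes and the sums over marker lists; the stromal sum is the highest in every row, and the epithelial sum does not exceed 152.6 CPM.

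Relatives of Tnfrsf19 were measured from a list of 25 receptors of its superfamily, of which 7 could be matched to a symbol. The symbols came from a table of transcripts that differ between these tissues, so their calls are not independent evidence. In Tag-seq 4 of 7 passed the call toward SU and 0 toward VMP, beside 6.3% and 3.38% of all transcripts tested. In RNA-seq 2 and 0 did, beside 2.36% and 1.18%. Tnfrsf11a, which encodes RANK, rose in SU Tag-seq from 4.19 to 45.4 CPM, a log2 ratio of 3.53 (3.03 to 4.11), and was at 0.455 and 3.85 CPM in RNA-seq, not called. The death receptor family member Tnfrsf21 rose from 42.7 to 143.5 CPM in Tag-seq, and Tnfrsf1a, the main TNF receptor, from 156.9 to 431.5 CPM. Neither was called in RNA-seq, where their log2 ratios were 2.05 and 0.35. Tnfrsf11b, the secreted decoy osteoprotegerin, was at 78.5 and 60.0 CPM in Tag-seq, not called, and rose in RNA-seq from 27.5 to 256.4 CPM, a log2 ratio of 3.42 (3.16 to 3.71). Tnfrsf14 and Relt were not called in either assay; their Tag-seq log2 ratios were -1.37 and -2.22. Among the 7, Tnfrsf19 had the highest log2 ratio in Tag-seq, which is a description since that ratio chose it.

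The relatives had other distributions over single cells. Tnfrsf1a had at least 10 reads in 21 SU cells (4 of them among the 11 with Tnfrsf19) and 7 VMP cells. Tnfrsf11b had them in 23 SU and 4 VMP cells, and Tnfrsf21 in 14 SU and 0 VMP cells. Tnfrsf11a had at most 1 read in any SU cell and 30 in 1 VMP cell. Of the 15 adaptors and partners listed, 3 were matched. Lingo1, the Nogo complex partner, fell in SU Tag-seq from 100.6 to 22.6 CPM and had no more than 3 reads in any SU cell. Tradd, an adaptor of TNF receptors, had no count in the VMP RNA-seq library against 117 in that of SU, and 4 SU cells with at least 10 reads, none of them among the 11.

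**Figure D5:**
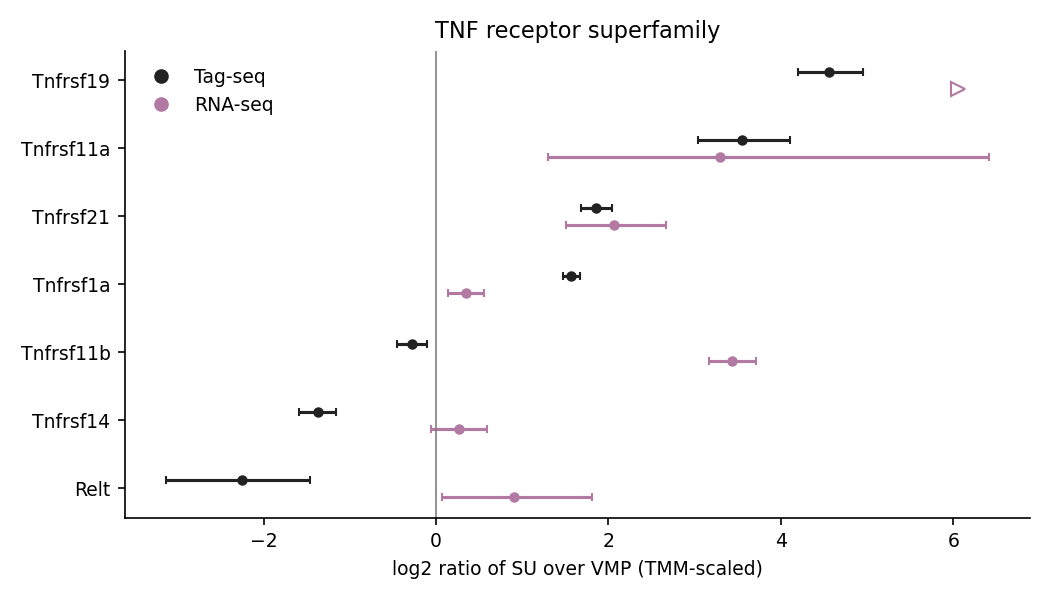
Log2 ratio of SU over VMP (TMM-scaled, no pseudocount) of 7 TNF receptor superfamily genes in Tag-seq (black) and RNA-seq (purple), with 95% counting intervals. The open triangle is a lower bound for Tnfrsf19 in RNA-seq, where VMP had 0 counts; the signs of the assays differ for Tnfrsf11b, Tnfrsf14 and Relt.

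Pathways linked to either gene by background knowledge were taken as lists, with the same limit on symbols, so their calls are not independent evidence either. Beside the counts below, the shares of all transcripts called toward SU and VMP were 6.3% and 3.38% in Tag-seq. In RNA-seq they were 2.36% and 1.18%. Of 22 Wnt receptors and feedback targets 6 were matched, and in Tag-seq 2 passed the call toward SU and 1 toward VMP, while in RNA-seq none of the 5 tested did. Sp5, a Wnt-induced transcription factor, rose in SU Tag-seq from 0.127 to 13.8 CPM and Notum, a Wnt-inactivating enzyme, from 13.2 to 59.2 CPM. In RNA-seq Sp5 had 0 counts in VMP and 1 in SU, and Notum 0 and 10. Axin2, the common feedback inhibitor, fell in SU Tag-seq from 101.8 to 29.2 CPM, was not called in RNA-seq (4.09 CPM in VMP, 5.14 in SU), and was at 5.10 CPM in the summed VMP cells and 16.8 CPM in the summed SU cells, the opposite order to Tag-seq. In the 11 SU cells with Tnfrsf19, Axin2 and Notum had 10 reads in none and Sp5 in 1. In the other 55 SU cells these genes had them in 5, 1 and 0. A count of 0 of 11 allows a share of up to 28.5%, so no difference can be read from these counts. Of the other matched Wnt genes, Nkd2 had 10 reads in 0 of the 11 and 3 of the 55, and Fzd7 in 0 and 0. The receptor Fzd4 had them in 8 and 32. Of 18 retinoic acid genes 8 were matched. In Tag-seq 1 passed toward SU and 3 toward VMP, and in RNA-seq 0 and 2. Dhrs3, a retinal reductase, rose in SU Tag-seq from 591.1 to 1610 CPM. It was not called in RNA-seq (77.5 CPM in VMP, 102.7 in SU) and was at 100.7 CPM in the summed VMP cells and 64.9 CPM in the summed SU cells. Aldh1a2, which makes retinoic acid, fell in SU Tag-seq from 2085 to 507.0 CPM. It was not called in RNA-seq (480.0 CPM in VMP, 505.7 in SU), and the summed cells had 397.3 CPM in VMP and 381.2 CPM in SU. Crabp1, a retinoic acid binding protein, fell in SU Tag-seq from 220.7 to 74.5 CPM and in RNA-seq from 111.9 to 4.85 CPM, and the summed cells had 57.3 CPM in VMP and 8.42 CPM in SU.

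The genes with the most similar profiles were found by Euclidean distance between centred log2(CPM + 1) values over 6 sums. The sums were VMP and SU in Tag-seq, RNA-seq and summed cells. The 1504 candidates had a symbol and at least 50 counts in the SU library of both bulk assays. The symbols came from transcripts that differ between these tissues, and the count filter favours genes high in SU. A high SU level of the neighbours therefore follows in part from the choice of candidates. The 5 nearest to Gprc5a were Cdh15, Fam84a, Slc16a11, Tspan1 and Trim55, with distances from 1.85 to 2.42. Cdh15, the cadherin of muscle progenitors, was at 60.3 CPM in SU Tag-seq, 29.5 CPM in SU RNA-seq and 6.99 CPM in the summed SU cells, with reads in 9 SU and 0 VMP cells. The 5 nearest to Tnfrsf19 were Stk26, Stk39, Fndc1, Hes1 and Ptges, with distances from 2.45 to 2.86. Hes1, a Notch-responsive repressor, had reads in all 66 SU cells and 28 VMP cells, and Stk26 in 35 and 30. Tnfrsf19 ranked 104 among the neighbours of Gprc5a, and Gprc5a ranked 77 among those of Tnfrsf19, at a distance of 3.91.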

How the data were processed

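Deposited values were raw read counts per Ensembl gene made by the authors (Rnor_6.0). Tag-seq reads were trimmed and aligned with Bowtie2 after FastQC. RNA-seq and single-cell reads were trimmed with Trimmomatic 0.33 and aligned with TopHat, and duplicates were removed with Picard 1.128; SAMtools and HTSeq are named in the submitters' processing notes. Removal of duplicates limits the count of a short or abundant transcript, and tags depend on an NlaIII site. The 95 spike-in rows of RNA-seq and single cells were kept out of library sizes.

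Gprc5a and Tnfrsf19, the gene lists and the named genes (both genes, all matched members of their families, up to 4 abundant genes of each other list and any gene a sentence on a cell turns on, and the 5 nearest profiles) were chosen with earlier results of these data known. Symbols came from the study's table of differential transcripts (2995 identifiers), so lists with under 80% matched have no median. Log2 ratios used TMM scaling and a pseudocount of 0.5 counts. Intervals are 95% exact Poisson, Clopper-Pearson for shares, and conditional on the sum for ratios. Against 0 counts a floor of 3 counts gives a lower bound, which is not a 95% limit. Calls used NOISeq, the tool named in the study, written anew in Python for single libraries. A transcript needed a CPM over 1 in VMP or SU; for each tissue 5 libraries of 20% depth (variability 0.02) were drawn, zeros became 0.5, and the threshold was a q of 0.9. The sources used here do not settle how its noise is scaled. Of 4 constructions, all run with their counts of calls seen, the first written was kept: noise brought back to full depth, so that differences have the scale of the real libraries, and points at zero left out. On simulated counts with 8-fold changes it recovered 100% of 200 changed genes among 11850 tested for Tag-seq and 16594 for RNA-seq. These counts varied by counting error alone and the changed genes were well counted, so a high recovery could be foreseen. Only the kept construction was run on them, so the recovery does not bear on the choice among the 4. Python 3.11.15, numpy 2.4.6, scipy 1.17.1 and pandas 2.3.3 were used. Cells were not filtered in the values reported, and doublets were not called. No promoter or protein sequence is shown. The study's methods and the labels differ in the number of cells sequenced per tissue; the labels were used.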

Additional observations from a re-analysis of the deposited data

How the results depend on the processing

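No paired analysis was possible because cell numbers name capture sites of separate pools (33 numbers occur in both tissues) and no test was run. Of the alternative values computed, 37 stayed within the counting interval or within 1.5 times the count, and 42 moved. Most of these values are counts, shares or levels, which have no sign and could not change direction. The log2 ratios of SU over VMP, which chose the genes, kept their sign. Both genes passed the call under all 4 noise constructions and total count scaling. The Tag-seq log2 ratios of both genes stayed within their intervals under every scaling and pseudocount tried. The lower bound of the RNA-seq log2 ratio (TMM scaling) was 6.498 for Gprc5a and 6.05 for Tnfrsf19; it moved to 6.29 and 5.85 with total count scaling, 6.96 and 6.52 with no scaling, and 6.02 and 5.58 with a pseudocount of 5.

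Counts of calls depended on the noise construction, and the alternatives to it were chosen after seeing the data. Toward SU and VMP, Tag-seq gave 768 and 412 calls and RNA-seq 413 and 206. With noise at 20% depth these were 1320, 809, 1482 and 1197 without points at zero, and 1465, 1018, 1836 and 1562 with them; at full depth with all points kept they were 787, 436, 492 and 261. With no filter on low counts they were 212, 2, 181 and 88, and with q of at least 0.95 they were 284, 23, 87 and 49. With noise at 20% depth, with or without points at zero, the receptor superfamily had 2 calls toward VMP in Tag-seq in place of 0 and 4 toward SU in RNA-seq in place of 2; the Wnt list had 4 in place of 1 toward VMP in Tag-seq, and the retinoic acid list 5 in place of 3; in RNA-seq the Wnt list had 1 toward VMP in place of 0, and the retinoic acid list 2 toward SU in place of 0. The percentages of transcripts called and the list counts in the report hold for the kept construction.

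With at least 10 reads in place of 1, the share of cells was 3.03% for Gprc5a in SU, and 2.04% in VMP and 16.7% in SU for Tnfrsf19; thinned to the shallowest cell, the Tnfrsf19 shares were 22.4% in VMP and 33.3% in SU. The RNA-seq level of Gprc5a over summed SU cells was 26.9-fold without its top cell and 7.19-fold as a mean of per-cell CPM; that of Tnfrsf19 was 1.30-fold without its top cell, which is also the cell with most epithelial genes (left out after seeing the data). The Tnfrsf19 level in summed VMP cells, 17.6 CPM, was 1.17 CPM without its top cell, 12.8 CPM as a mean of per-cell CPM and 15.2 CPM with spike-ins in the library size.

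The share of SU cell reads in cells with epithelial transcripts, 0% for Gprc5a and 21.6% for Tnfrsf19, was 69.9% and 92.3% with 1 gene at 10 reads (55 cells, mostly through Perp) and 97.0% and 78.5% with 3 genes at 1 read (50 cells). For Tnfrsf19 it was 0% with 5 genes at 10 reads and 0% with 3 genes after Perp was taken out, an alternative added after seeing the data. With 1 gene at 10 reads and no Perp (17 cells) it was 0.424% and 23.5%. With log2(CPM + 5), 2 of the 5 nearest genes of Gprc5a and 1 of the 5 of Tnfrsf19 were shared with the list given.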
